A study of Rattus norvegicus with 29 samples.

Results

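The genes described here build and move the cytoskeleton: tubulins, stathmins, Map1 proteins, kinesins and dyneins on the microtubule side, and actins, actin-binding proteins, myosins and the adaptor Fnbp1 on the actin side. They were chosen by symbol alone, as every probe set whose single annotated symbol begins with the name of one of these families. The rule found 139 of 15866 probe sets, of 92 of 10411 genes, with 57 microtubule probe sets (44 genes) and 82 actin probe sets (48 genes). The rule reads no measured value, but it was drawn up with earlier results of these data known. Fnbp1 and Cnn3 had been singled out in those results, and the rule names Fnbp1 as a single gene. The values of these genes here are therefore no separate evidence. Of the 139, 96 probe sets of 72 genes were bright enough to be tested, 41 on the microtubule side and 55 on the actin side.

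The study measured RNA of the rat basolateral amygdala, a region needed for storing fear memory, on 29 one-colour arrays, 1 per sample. The 9 baseline control arrays carry no time in their labels. The other 20 were taken 6 h after treatment, 5 each after pain alone, after isoflurane alone, after fear conditioning, and after fear conditioning under isoflurane, an inhaled anaesthetic that can impair the storage of memory. Pain is a component of the conditioning procedure, so the study compares conditioning with pain as well as with baseline. The labels name no strain, sex or age, and a rat number on just 15 of the arrays. These 15 numbers, on the pain arrays and those of both conditioning groups, all differ. Whether each baseline and isoflurane replicate is its own animal is unknown. The p-values measure the spread between these samples, which may be partly technical. Only the labels of baseline and isoflurane arrays name a labelling kit. A difference of kit or of hybridisation series therefore cannot be told apart from the differences of the pain and both conditioning groups from baseline, or of conditioning under isoflurane from isoflurane. The isoflurane arrays also carry sample numbers apart from those of all other arrays. A difference of series thus cannot be told apart from isoflurane minus baseline either.

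Microtubules are polymers of alpha- and beta-tubulin along which kinesins mostly carry cargo outward and cytoplasmic dynein carries it back toward the cell body. Actin filaments fill dendritic spines, where the Arp2/3 complex makes branches, cofilin severs, profilin and thymosin beta handle the monomers, and myosins pull on the filaments or walk along them. Remodelling of spine actin accompanies the storage of memory, which is the setting in which these genes are usually discussed in the amygdala.

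A pair of motifs in the start regions are shown because serum response factor, which reads actin monomer levels through its cofactors, binds CArG boxes in many actin genes, and because the activity-regulated factor CREB binds the full cyclic AMP element. The windows are RefSeq's on GRCr8, 250 bases before to 50 after a gene's start, and 82 of the 92 genes had one. A CArG box, with CC, then any 6 of A or T, then GG, lay in 4 of 86 windows of these genes (4.65%) and in 548 of all 33469 windows (1.64%). The element TGACGTCA lay in 2 of 86 windows (2.33%) and in 612 of all windows (1.83%). Both motifs read alike on both strands and do not overlap each other in these windows. Capitals mark the motif, with 10 bases on each side.
Actg1 (chr10:106121022-106121051, minus strand, 90 to 81 bases before the start): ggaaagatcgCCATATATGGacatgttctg
Cnn2 (chr7:10370364-10370393, minus strand, 71 to 62 bases before the start): cgcttccacgCCTTATAAGGgcatttgccc
Myo1e (chr8:79768722-79768751, plus strand, 96 to 87 bases before the start): gctgaattctCCATTTATGGacagattgcc
Kif6 (chr9:18871004-18871033, minus strand, 234 to 225 bases before the start): ggaatctcaaCCAAAAAAGGccatttctgc
Tubb2a (chr17:31002115-31002142, plus strand, 61 to 54 bases before the start): tctgcccccgTGACGTCAgcggggctgg
Kif15 (chr8:131479298-131479325, plus strand, 96 to 89 bases before the start): accgtgtccgTGACGTCAtccgaacacg
A match is a description of the letters and shows no binding. Kif6 and Kif15 were too dim to be tested. Actg1, cytoplasmic gamma-actin, lay close to baseline in every treated group on the log2 scale, from -0.074 after pain to 0.061 after conditioning under isoflurane. Its partners in the motif, Cnn2 (-0.016 to 0.19) and Myo1e (0.042 to 0.16), also had no difference from baseline at an unadjusted p below 0.05. Tubb2a, a major beta-tubulin of neurons, lay at -0.14 after conditioning (SE 0.064, adjusted p 0.485).

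Values below are quantile-normalised signals on the log2 scale, so a difference of 1 is a 2-fold difference. Differences, standard errors (SE) and p-values come from 1 limma fit of all 29 arrays, with p-values adjusted over all 9520 tested probe sets. None of the 96 cytoskeleton probe sets passed an adjusted p of 0.05 in any of the 7 comparisons of 2 groups, in the interaction, or in the F test over the 5 groups. At that threshold the fit called 1 of all 9520 probe sets (0.0105%), in isoflurane minus baseline, and 0 (0%) in every other comparison. No fold difference below therefore rests on an adjusted p under the threshold, and the genes are described by their values. The lowest adjusted p of a cytoskeleton gene was 0.148, for Fnbp1 after pain, and in the F test 0.674, again for Fnbp1.

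Before adjustment, 11 of 96 probe sets (11.5%) had p below 0.05 in pain minus baseline, beside 8.96% of all tested probe sets, with 4 higher and 7 lower (of all, 4.33% and 4.63%). In isoflurane minus baseline there were 3 (3.12%, beside 5.38% of all), with 2 higher and 1 lower (2.64% and 2.74%). The share after isoflurane alone was thus below that of all probe sets, and that after pain somewhat above it. Conditioning minus baseline gave 12 (12.5%, beside 10.1%), with 4 higher and 8 lower (5.12% and 5.03%). Conditioning under isoflurane minus baseline gave 6 (6.25%, beside 6.5%), with 3 higher and 3 lower (3.25% and 3.26%). Conditioning minus pain gave 12 (12.5%, beside 9.04%), with 5 higher and 7 lower (4.74% and 4.31%). Conditioning under isoflurane gave 4 against conditioning (4.17%, beside 3.69%), with 1 higher and 3 lower (1.79% and 1.9%). Against isoflurane it gave 5 (5.21%, beside 4%), with 2 higher and 3 lower (1.88% and 2.12%). The interaction, the effect of conditioning with isoflurane minus that without, gave 3, all lower (3.12%, beside 4.79%, of which 2.38% were higher and 2.41% lower), and the F test 9 (9.38%, beside 7.35%). These shares lie near those of all probe sets. No cytoskeleton probe set had a treated group wholly clear of the baseline arrays, beside 0.116% of all after pain, 0.137% after isoflurane, 0.116% after conditioning and 0.221% after conditioning under isoflurane. In conditioning minus pain the microtubule side gave 8 of 41 (19.5%) and the actin side 4 of 55 (7.27%), a difference that was not tested.

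Pain replicate 3 stood apart from the other pain arrays. Its deposited median signal, 292.2, was the highest of the 29, and it was the lowest or highest of the 5 pain arrays for 62.4% of all tested probe sets, beside 31.2% to 38.1% for the other pain arrays. Without it, 6 of 97 tested cytoskeleton probe sets had an unadjusted p below 0.05 in pain minus baseline (3 higher and 3 lower), beside 5.16% of all. In conditioning minus pain 11 of 97 did, beside 7.7%.

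**Figure D1:**
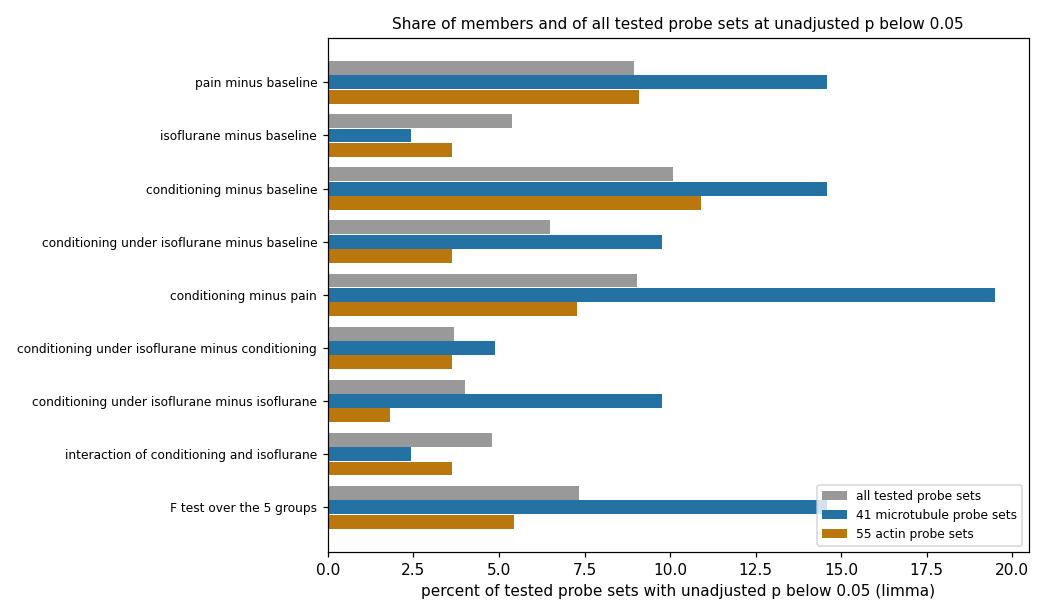
Percent of tested probe sets with an unadjusted limma p below 0.05 (horizontal axis) in each comparison, for all 9520 tested probe sets (grey), the 41 microtubule probe sets (blue) and the 55 actin probe sets (orange). The widest gap from the grey bar is that of the microtubule probe sets in conditioning minus pain, 19.5% beside 9.04%.

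The typical cytoskeleton gene moved little. The median log2 difference of the microtubule probe sets was -0.029 after pain, -0.037 after isoflurane, -0.061 after conditioning and -0.023 after conditioning under isoflurane. For the actin probe sets the same medians were -0.0058, 0.021, 0.015 and -0.000058. Over all probe sets they lay between -0.0025 and 0.0037. Microtubule probe sets above baseline numbered 14, 14, 17 and 19 of 41, in the same order, and actin probe sets 27, 31, 30 and 27 of 55. Of all probe sets 49.2%, 51%, 49.9% and 51.1% lay above baseline. Against pain, conditioning was higher for 22 microtubule and 30 actin probe sets, beside 50.3% of all. Conditioning under isoflurane was higher than conditioning for 25 and 25 of them (beside 51.8%), and higher than isoflurane for 17 and 26 (beside 50.7%). Without pain replicate 3 the medians after pain were -0.0054 for the microtubule and 0.021 for the actin probe sets. Because the 4 comparisons share the 9 baseline arrays, likeness among them is no separate evidence. Centring each array on its own median in place of quantile normalisation put the median of all probe sets at -0.111 in pain minus baseline. In conditioning minus baseline it lay at -0.060, so directions after pain and after conditioning are read against these shifts. This centring also turned the split of the cytoskeleton probe sets at an unadjusted p below 0.05 from 4 higher and 7 lower to 1 and 20 after pain, and from 4 and 8 to 3 and 15 after conditioning. All probe sets turned the same way, from 412 higher and 441 lower to 182 and 1315 after pain, and from 487 and 479 to 223 and 847 after conditioning.

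**Figure D2:**
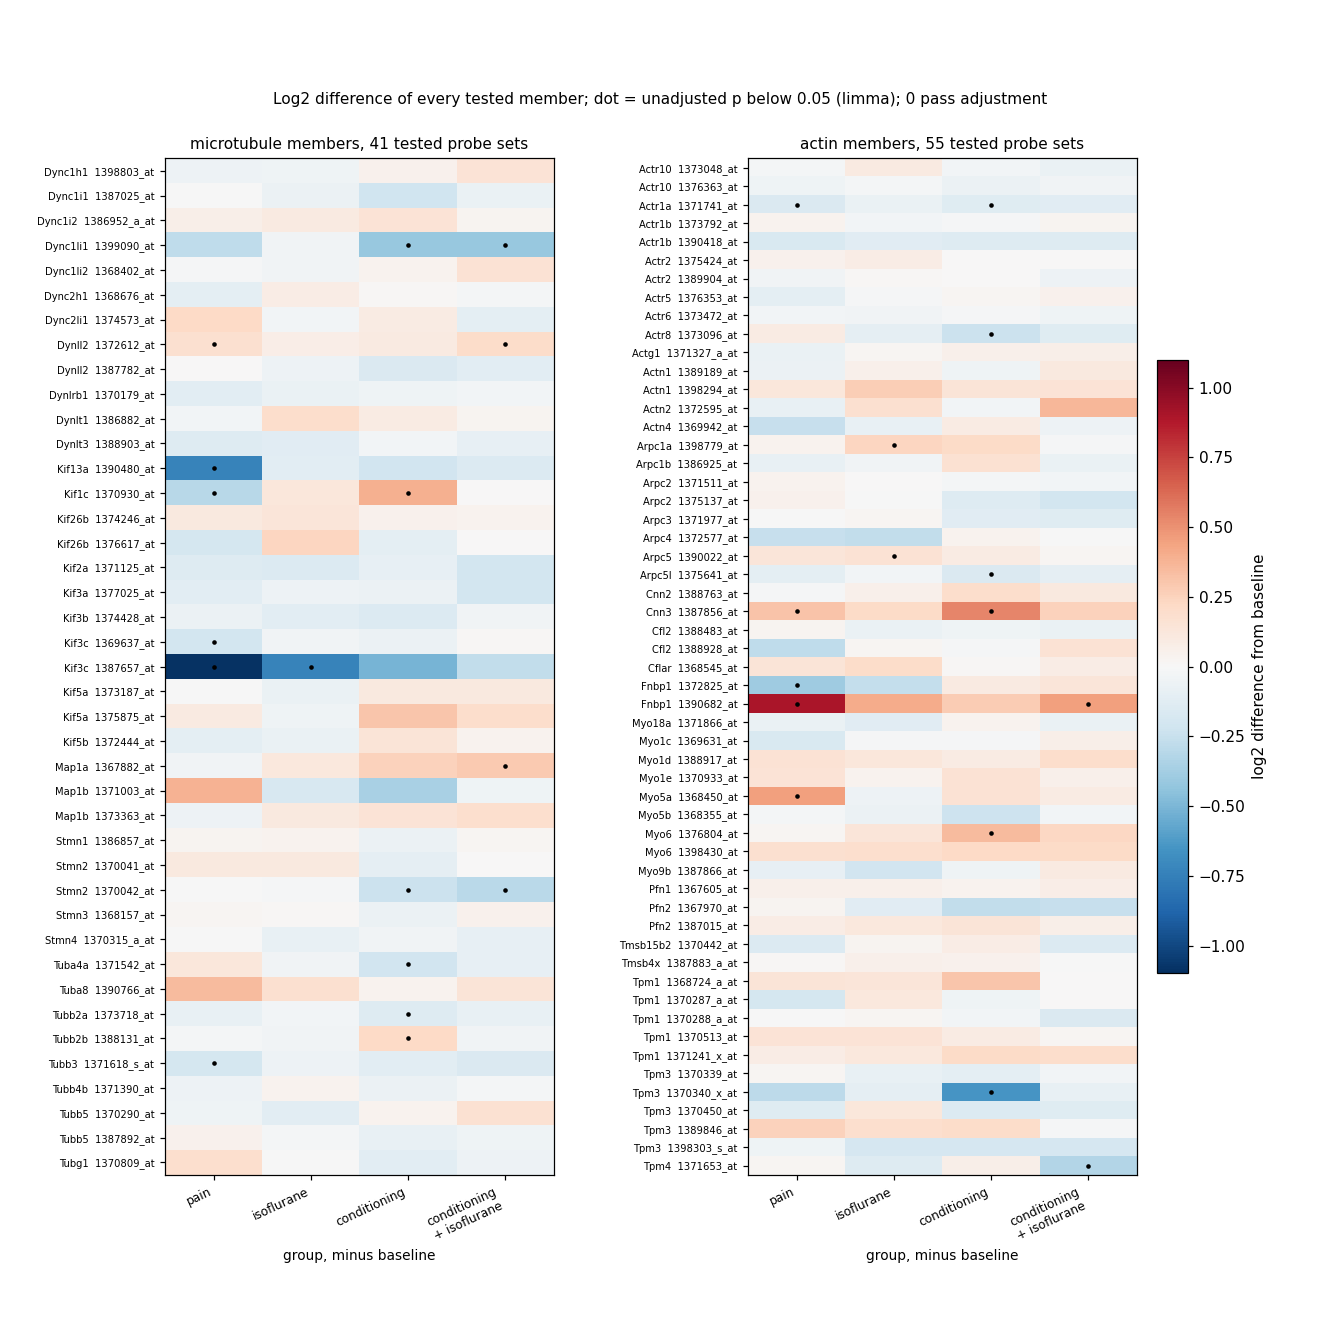
Log2 difference from baseline (colour) of the 41 tested microtubule probe sets (left) and the 55 tested actin probe sets (right) in the 4 treated groups (columns), with a dot where the unadjusted limma p is below 0.05. Most cells are pale, the darkest blue is Kif3c after pain (-1.09) and the darkest red is Fnbp1 after pain (0.90).

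The tissue markers bear on how these values can be read. Of 13 probe sets of neuronal markers 12 passed the brightness filter, including Snap25, Slc17a7, Camk2a and Nrgn, and of 9 probe sets of GABAergic markers all 9. In conditioning minus baseline, oligodendrocyte markers were higher in 15 of 15 tested probe sets (median 0.32) and astrocyte markers in 17 of 17 (median 0.17). Striatal neuron markers were lower in 9 of 9 (median -0.39). In limma 0 of these passed an adjusted p of 0.05, and 8, 7 and 4 had an unadjusted p below 0.05. Of all probe sets 49.9% lay above baseline there, and 10.1% had an unadjusted p below 0.05. The summed signal of the oligodendrocyte list ran from 29290 to 45830 over the baseline arrays and from 36950 to 51650 over the conditioning arrays. That of the striatal list ran from 5436 to 17800 and from 4930 to 12420. After pain the astrocyte sum lay between 48610 and 53630, beside 41630 to 50400 at baseline. Red cell markers, 4 probe sets of which 2 were tested, summed to 1590 to 2293 on the pain arrays, wholly below the 2375 to 6818 of the baseline arrays, and their part in the values after pain was not tested. In tissue of mixed cells, fewer cells of a type and less RNA per cell cannot be told apart. Choroid plexus markers summed to 20950 on 1 baseline array, beside a baseline median of 1624.

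Tubulins are the subunits of the microtubule itself, and 9 of their 11 probe sets, of 8 genes, were tested. Their differences from baseline lay between -0.21 (Tuba4a after conditioning) and 0.35 (Tuba8 after pain). After conditioning 6 of the 9 lay below baseline and 3 above, under quantile normalisation and the deposited scaling. With arrays centred on their medians 8 of 9 lay below, where the median of all probe sets was itself -0.060.

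Tuba4a, an alpha-tubulin of neurons, was read by probe set 1371542_at at 11.34, 11.35, 11.75, 11.65 and 11.51 on the 5 conditioning arrays and at 11.79, 11.79, 11.87, 11.92 and 11.89 on the 5 pain arrays. The baseline arrays lay at 11.47 at the lowest, 11.73 at the median and 11.93 at the highest. Isoflurane arrays ran from 11.39 to 11.91 and those of conditioning under isoflurane from 11.47 to 11.80. Every conditioning array lay below every pain array, although both groups overlapped baseline. Conditioning lay below pain by a log2 difference of -0.33, SE 0.099, adjusted p 0.394, and below baseline by a log2 difference of -0.21, SE 0.087, adjusted p 0.450.

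The beta-tubulin Tubb2b, an isotype abundant in developing neurons, went the other way. Probe set 1388131_at read 12.15, 12.25, 12.08, 11.93 and 11.95 after conditioning, 11.87, 11.74, 11.87, 11.87 and 11.84 after pain and 11.78, 11.95, 11.69, 11.90 and 11.78 after conditioning under isoflurane. Baseline gave 11.43 at the lowest, 11.92 at the median and 12.20 at the highest, so 4 of the 5 conditioning arrays lay inside its range and 1 just above it. Among the tested cytoskeleton probe sets, Tubb2b and Tuba4a alone had conditioning and pain arrays that did not overlap, 2 of 96 beside 1.13% of all probe sets. The difference from pain was 0.24 (SE 0.11, adjusted p 0.532), and conditioning under isoflurane lay -0.26 from conditioning (SE 0.11, adjusted p 0.9995). Baseline replicates 1 to 5 averaged 11.72 for Tubb2b and replicates 6 to 9 averaged 12.04.

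The 2 probe sets of Tubb5, a widely expressed beta-tubulin, did not move alike. The dimmer, 1370290_at, read 10.13, 10.05, 10.18, 10.18 and 10.39 after conditioning under isoflurane and 10.03, 9.79, 10.11, 9.79 and 9.81 after isoflurane alone (log2 difference 0.28, SE 0.11, adjusted p 0.998). The brighter, 1387892_at, differed by -0.025 in the same comparison and by -0.13 between conditioning and pain (SE 0.063, adjusted p 0.545). Tubb3, the neuron-specific beta-tubulin, lay -0.19 from baseline after pain on its tested probe set (SE 0.091, adjusted p 0.541), with pain arrays from 10.77 to 11.12 and baseline arrays from 10.82 to 11.36. Tuba8 differed by 0.35 after pain (SE 0.17, adjusted p 0.562). Tubg1, the gamma-tubulin from which microtubules are nucleated, stayed between -0.12 and 0.19 of baseline across the treated groups.

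Map1a and Map1b are large proteins that bind along microtubules of dendrites and growing axons. Map1a (1367882_at) read 11.60, 11.20, 10.96, 11.39 and 11.16 after conditioning and 11.39, 11.23, 11.66, 11.29 and 10.95 after conditioning under isoflurane. Its baseline arrays lay at 10.72 at the lowest, 10.88 at the median and 11.42 at the highest. Both groups overlapped baseline, with differences of 0.25 (SE 0.13, adjusted p 0.532) and 0.29 (SE 0.13, adjusted p 0.743).

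Map1b differed by probe set. On 1371003_at, which lies near the brightness filter, the pain arrays read 7.19, 7.53, 8.53, 7.59 and 8.05 and the conditioning arrays 6.88, 6.40, 7.51, 7.29 and 7.12, against 6.71 at the lowest, 7.47 at the median and 7.87 at the highest at baseline. Conditioning lay below pain there (log2 difference of -0.74, SE 0.24, adjusted p 0.441). The far brighter 1373363_at had the opposite sign in the same comparison, 0.20 (adjusted p 0.567), with conditioning arrays from 12.32 to 12.66 and pain arrays from 12.13 to 12.60. No direction for Map1b can be given from this pair.

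Stathmins bind tubulin dimers and promote microtubule disassembly. All 5 tested probe sets, of 4 genes, lay below baseline after conditioning, by -0.042 to -0.23, and did so under each of the 3 scalings. Stmn2, found in growing axons, led them on 1370042_at, with 11.12, 10.98, 11.37, 10.89 and 10.95 after conditioning and 10.76, 11.04, 10.89, 11.16 and 11.12 after conditioning under isoflurane. Baseline arrays lay at 11.08 at the lowest, 11.30 at the median and 11.54 at the highest, pain arrays from 11.17 to 11.38 and isoflurane arrays from 10.96 to 11.68. Conditioning under isoflurane overlapped baseline in its upper arrays and differed by -0.30 from it (SE 0.095, adjusted p 0.611) and by -0.28 from isoflurane (SE 0.11, adjusted p 0.998), or -0.18 from isoflurane without isoflurane replicate 2. Conditioning differed from baseline by -0.23 (SE 0.095, adjusted p 0.450).

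The other Stmn2 probe set, 1370041_at, read 12.07, 11.95, 12.33, 12.02 and 12.06 after conditioning and 12.03, 12.27, 12.29, 12.51 and 12.38 after pain. Both probe sets lay below pain after conditioning, by -0.22 and -0.21 (adjusted p 0.549 and 0.532). Against baseline after conditioning under isoflurane the second probe set lay at 0.0041. Stmn1, Stmn3 and Stmn4 gave no unadjusted p below 0.05 in the 4 comparisons with baseline.

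Under quantile normalisation kinesins had the lowest median of the 15 families after pain. Of 24 probe sets 12, of 9 genes, were tested, and 10 of the 12 lay below baseline after pain (median -0.13). The same count was 10 of 12 with the deposited scaling and 11 of 12 with arrays centred on their medians. After conditioning 7 of 12 lay below baseline and 5 above, and conditioning lay above pain in 10 of 12. At an unadjusted p below 0.05 there were 4 of 12 kinesin probe sets after pain, beside 8.96% of all probe sets (4.63% lower), all 4 lower: both of Kif3c, and those of Kif13a and Kif1c. Without pain replicate 3, 9 of 12 kinesin probe sets lay below baseline.

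Kif3c is the partner of Kif3a in a kinesin-2 motor of neurons. On 1387657_at the pain arrays read 6.53, 7.10, 5.04, 7.63 and 7.36, against 6.88 at the lowest, 7.78 at the median and 8.74 at the highest at baseline. The isoflurane arrays read 7.71, 6.66, 7.33, 6.66 and 7.09 and the conditioning arrays 7.11, 7.20, 7.55, 7.45 and 7.26. Pain replicate 3, at 5.04, was the lowest of all 29 arrays, and the remaining pain arrays lay within the baseline range or below its lowest value. The difference after pain was -1.09 (SE 0.33, 95% interval -1.76 to -0.42, adjusted p 0.346), or -0.67 without replicate 3 (adjusted p 0.923), and after isoflurane -0.73 (SE 0.33, adjusted p 0.922). Spread was wide: 0.64 on the log2 scale within groups, the widest of the 96 probe sets, and baseline replicates 1 to 5 averaged 7.39 beside 8.37 for replicates 6 to 9.

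The second Kif3c probe set, 1369637_at, was brighter and tighter. It read 10.46, 10.29, 10.21, 10.40 and 10.48 after pain, against 10.38 at the lowest, 10.57 at the median and 10.82 at the highest at baseline, with a difference of -0.20 (SE 0.074, adjusted p 0.473). Both probe sets were thus lower after pain, 1 by a small and 1 by a large amount. After conditioning the brighter probe set differed by -0.063 and the dimmer by -0.51.

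Kif13a, a kinesin that moves endosomes and receptor-bearing vesicles, read 7.25, 7.74, 6.22, 7.37 and 6.79 after pain and 6.35, 7.80, 7.78, 7.85 and 8.22 after conditioning on 1390480_at. Baseline gave 7.26 at the lowest, 7.84 at the median and 8.16 at the highest, and isoflurane arrays ran from 7.56 to 7.95. Of the 5 pain arrays 3 lay below every baseline array, and so did 1 conditioning array, at 6.35. The pain difference was -0.73 (SE 0.22, adjusted p 0.346), or -0.52 without pain replicate 3 (adjusted p 0.906). Conditioning lay 0.53 from pain (SE 0.25, adjusted p 0.548), a value that moved with single arrays: it was 0.32 without pain replicate 3 (adjusted p 0.744) and 0.84 without conditioning replicate 1 (adjusted p 0.376).

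Kif1c, a fast kinesin that carries dense-core vesicles, had the lowest unadjusted p of the cytoskeleton genes between conditioning and pain. On 1370930_at the conditioning arrays read 8.67, 8.86, 8.20, 8.60 and 8.94 and the pain arrays 7.71, 8.16, 7.71, 8.26 and 7.93. Baseline arrays lay at 7.83 at the lowest, 8.33 at the median and 8.70 at the highest, isoflurane arrays from 8.06 to 8.76 and those of conditioning under isoflurane from 7.98 to 8.41. Only the lowest conditioning array lay below the highest pain array, and both groups overlapped baseline. Conditioning exceeded pain by 0.70 (SE 0.16, 95% interval 0.37 to 1.04, adjusted p 0.356).

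Pain lay -0.31 from baseline for Kif1c and conditioning 0.39 (adjusted p 0.528 and 0.417), and conditioning under isoflurane -0.39 from conditioning (adjusted p 0.9995). The interaction was -0.52 (SE 0.22, adjusted p 0.959). Oligodendrocyte markers moved the same way as Kif1c in some comparisons. In conditioning minus pain 15 of 15 were higher (median 0.24). In conditioning under isoflurane minus conditioning 15 of 15 were lower (median -0.27). Their summed signal ran from 32390 to 45610 over the pain arrays, from 36950 to 51650 over the conditioning arrays and from 32460 to 42650 over those of conditioning under isoflurane. After pain, where Kif1c was lower, its median was 37820 beside 36970 at baseline. Median sums of astrocyte markers were 50840 after pain, 51770 after conditioning and 50260 after conditioning under isoflurane. Those of microglia markers were 10100, 11180 and 10320, so both were also highest after conditioning among these groups. The part of these cell types in the Kif1c values was not tested. The 3 tested probe sets of Kif5a and Kif5b, motors of classical axonal transport, lay between -0.11 and 0.31 of baseline. Both Kif5a probe sets lay above baseline after conditioning (0.11 and 0.31) and after conditioning under isoflurane (0.11 and 0.20), without an unadjusted p below 0.05. The remaining tested kinesins, Kif2a, Kif3a, Kif3b and Kif26b, gave no unadjusted p below 0.05 in any comparison.

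Cytoplasmic dynein is built from heavy, intermediate, light intermediate and light chains, and 12 of 14 probe sets, of 11 genes, were tested. Their family median lay between -0.040 and 0.028 of baseline in the 4 treated groups. After conditioning it turned from 0.028 to -0.064 with arrays centred on their medians, beside -0.060 for all probe sets under that centring. Dync1li1, a light intermediate chain that holds cargo adaptors, read 11.33, 10.63, 10.71, 10.76 and 10.66 after conditioning and 10.90, 10.96, 10.43, 10.71 and 11.08 after conditioning under isoflurane on 1399090_at. Pain arrays read 10.99, 11.01, 10.97, 10.87 and 10.90 and baseline gave 10.83 at the lowest, 11.30 at the median and 11.79 at the highest. The pain arrays lay in the lower part of the baseline range, while 4 of the 5 conditioning arrays and 2 of the 5 arrays of conditioning under isoflurane lay below every baseline array. Conditioning and conditioning under isoflurane each differed by -0.41 (SE 0.15, adjusted p 0.419 and 0.685).

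The baseline itself was split for Dync1li1, with a mean of 11.03 over replicates 1 to 5 and 11.49 over replicates 6 to 9. Isoflurane arrays spanned 10.70 to 11.67, and conditioning under isoflurane lay -0.37 from them (SE 0.18, adjusted p 0.998). Its sister chain Dync1li2 (1368402_at) read 11.61, 11.64, 11.63, 11.64 and 11.52 after conditioning under isoflurane and 11.33, 11.26, 11.21, 11.57 and 11.72 after isoflurane alone, 0.19 apart (SE 0.093, adjusted p 0.998). The heavy chain Dync1h1 lay 0.20 from isoflurane in the same comparison (SE 0.11, adjusted p 0.998). The other 7 tested dynein probe sets, those of Dync1i1, Dync1i2, Dync2h1, Dync2li1, Dynlrb1, Dynlt1 and Dynlt3, lay between -0.22 and 0.22 of baseline and gave no unadjusted p below 0.05 in any comparison.

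Dynll2, a light chain shared by dynein and myosin V, was among the tighter probe sets. On 1372612_at the pain arrays read 12.23, 12.29, 12.34, 12.43 and 12.50 and those of conditioning under isoflurane 12.52, 12.29, 12.43, 12.33 and 12.35, against 11.93 at the lowest, 12.12 at the median and 12.43 at the highest at baseline. The differences were 0.17 (SE 0.080, adjusted p 0.524) and 0.20 (SE 0.080, adjusted p 0.692). Baseline replicates 6 to 9 averaged 12.01 and replicates 1 to 5 averaged 12.32. The pain difference turned to -0.039 with arrays centred on their medians. Its second probe set, 1387782_at, lay 0.0072 from baseline after pain and -0.12 after conditioning under isoflurane.

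**Figure D3:**
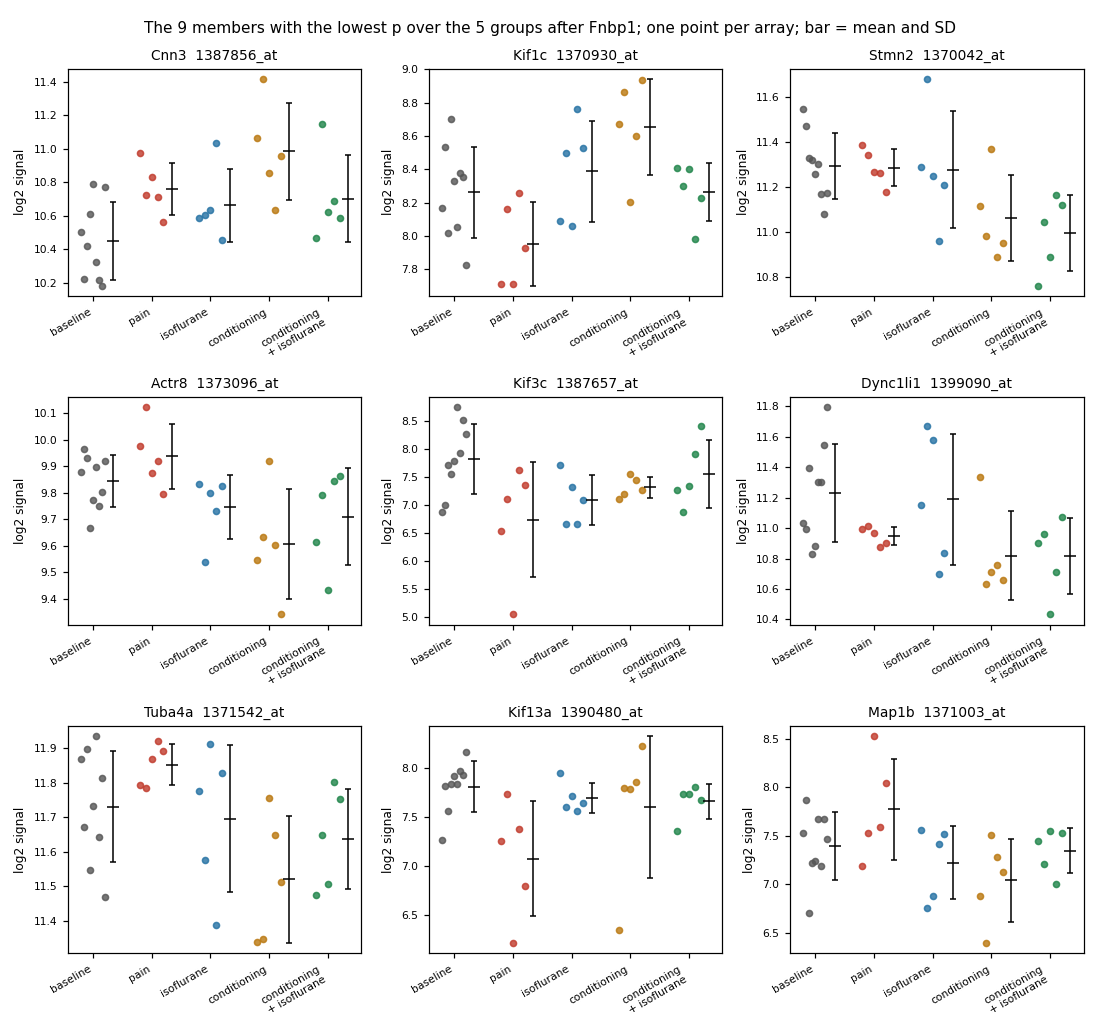
Log2 signal (vertical axis) of the 9 cytoskeleton probe sets with the lowest F-test p apart from those of Fnbp1, in the 5 groups (horizontal axis), with 1 point per array and bars for the mean and SD. Groups overlap baseline in every panel; Tuba4a after conditioning lies wholly below pain, and the Kif3c panel shows the single pain array at 5.04.

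On the actin side, actin itself was represented by Actg1 and the dim Actg2, and the filament cross-linkers by the alpha-actinins Actn1 to Actn4. Of 7 probe sets 5 were tested, with no unadjusted p below 0.05 against baseline. Actn2, enriched at the postsynaptic density, differed by 0.37 after conditioning under isoflurane (adjusted p 0.800). Actn4 differed by -0.26 after pain (adjusted p 0.620). The 2 tested probe sets of Actn1 lay at 0.056 and 0.27 after isoflurane.

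The Arp2/3 complex branches new filaments off old ones, and 8 of its 9 subunit probe sets were tested. Arpc1a (1398779_at) read 10.87, 11.06, 10.94, 10.85 and 11.02 after isoflurane and 10.40, 10.77, 10.61, 10.80 and 10.88 after conditioning under isoflurane. Baseline arrays lay at 10.35 at the lowest, 10.81 at the median and 10.96 at the highest, with replicates 1 to 5 averaging 10.85 and replicates 6 to 9 averaging 10.53. The isoflurane arrays lay in the upper part of that range or, at 11.06 and 11.02, above it (log2 difference of 0.24, SE 0.11, adjusted p 0.922). Conditioning arrays read 10.98, 10.89, 11.10, 10.72 and 10.89. The interaction was -0.46 (SE 0.16, adjusted p 0.959), the lowest unadjusted p of a cytoskeleton gene there, and conditioning under isoflurane lay -0.25 from isoflurane (adjusted p 0.998).

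Arpc5 (1390022_at) read 11.63, 11.66, 11.64, 11.68 and 11.61 after isoflurane against 11.27 at the lowest, 11.46 at the median and 11.75 at the highest at baseline. Its difference was 0.16 (SE 0.076, adjusted p 0.927). Baseline replicates 1 to 5 averaged 11.39 and replicates 6 to 9 averaged 11.61, and against the latter alone the difference was 0.038 (adjusted p 0.897). Arpc5l, an alternative to Arpc5 in the complex, lay -0.16 from baseline after conditioning (SE 0.077, adjusted p 0.488), with arrays from 9.74 to 10.05 against 9.83 to 10.20. Arpc4 differed by -0.25 after pain and -0.27 after isoflurane (adjusted p 0.612 and 0.945). The probe sets of Arpc1b, Arpc2 and Arpc3 gave no unadjusted p below 0.05 in any comparison. In conditioning under isoflurane 7 of the 8 subunit probe sets lay below baseline, none at an unadjusted p below 0.05. The farthest was 1 of Arpc2 at -0.20, with the other Arpc2 probe set at -0.027. With arrays centred on their medians 8 of 8 lay below baseline, but that centring put the median of all probe sets at -0.030 there.

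The symbol rule also brings in actin-related proteins, which do different work. Actr2 belongs to the Arp2/3 complex, Actr1a, Actr1b and Actr10 to dynactin, the partner of dynein, and Actr5, Actr6 and Actr8 to chromatin-remodelling complexes in the nucleus. Actr8, of the INO80 complex, read 9.55, 9.63, 9.92, 9.60 and 9.34 after conditioning and 9.97, 10.12, 9.88, 9.92 and 9.80 after pain on 1373096_at. Baseline gave 9.67 at the lowest, 9.88 at the median and 9.97 at the highest and was alike in both its parts, at 9.84. Of the 5 conditioning arrays 4 lay below every baseline array, and 1 lay among them. Conditioning differed by -0.23 from baseline (SE 0.087, adjusted p 0.417) and by -0.33 from pain (SE 0.099, adjusted p 0.394).

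Actr1a, which forms the short filament of dynactin, read 10.53, 10.53, 10.52, 10.57 and 10.60 after pain on 1371741_at and 10.67, 10.46, 10.64, 10.59 and 10.53 after conditioning, against 10.53 at the lowest, 10.73 at the median and 10.84 at the highest at baseline. The pain arrays clustered at the low end of the baseline range, with the lowest, at 10.52, just below it. Differences were -0.16 (SE 0.065, adjusted p 0.486) and -0.13 (SE 0.065, adjusted p 0.490). Actr2 lay between -0.055 and 0.083 of baseline over both its probe sets and all 4 groups. Of the 10 probe sets 7 lay below baseline after conditioning.

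Among the proteins that handle actin monomers and severing, the spread differed from gene to gene. Tmsb4x, the thymosin that sequesters monomeric actin, had the smallest spread of all 96 probe sets, 0.077 within groups, and lay between -0.0010 and 0.053 of baseline. Tmsb15b2, a second beta-thymosin, lay between -0.15 and 0.079. Pfn1 and Pfn2 are profilins, which help monomers exchange ADP for ATP, and Pfn1 lay between 0.041 and 0.071. On 1367970_at Pfn2 lay -0.27 from baseline after conditioning and -0.26 after conditioning under isoflurane (adjusted p 0.510 and 0.796). Its brighter probe set 1387015_at lay at 0.15 and 0.063, so the pair disagreed. The 2 probe sets of Cfl2, a cofilin, gave no unadjusted p below 0.05 against baseline, nor did Cflar, which matches the rule by symbol but regulates caspase-8 rather than actin.

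Tropomyosins coil along actin filaments and control access of other proteins, and 11 of 20 probe sets, of 3 genes, were tested. Tpm4 (1371653_at) read 8.12, 8.20, 8.21, 8.11 and 8.13 after conditioning under isoflurane, 9.04, 8.44, 8.41, 8.38 and 8.47 after conditioning and 8.27, 8.29, 8.38, 8.54 and 8.22 after isoflurane. Baseline gave 8.13 at the lowest, 8.40 at the median and 8.86 at the highest. The arrays of conditioning under isoflurane lay below every conditioning array and every isoflurane array, 1 of 96 probe sets in each comparison beside 0.704% and 0.924% of all. Differences were -0.39 from conditioning (SE 0.16, adjusted p 0.9995), -0.33 from baseline (SE 0.14, adjusted p 0.726) and -0.19 from isoflurane (adjusted p 0.998). Without conditioning replicate 1, at 9.04, the difference from conditioning was -0.27. Baseline replicates 1 to 5 averaged 8.64 and replicates 6 to 9 averaged 8.27.

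Tpm3 has 11 probe sets, 5 of them tested, and these gave no common picture. On 1370340_x_at, whose suffix marks probes that may match several transcripts, the conditioning arrays read 6.57, 7.08, 8.49, 7.81 and 7.72, against 7.91 at the lowest, 8.13 at the median and 8.70 at the highest at baseline (log2 difference of -0.65, SE 0.24, adjusted p 0.417). Of the 5 conditioning arrays 4 lay below every baseline array and 1 inside the baseline range. Without conditioning replicate 1, at 6.57, the difference was -0.41 (adjusted p 0.587). The other 4 tested Tpm3 probe sets ran from -0.19 to 0.20 after conditioning. Tpm1 had 5 tested probe sets, with 1368724_a_at at 0.30 after conditioning (SE 0.15, adjusted p 0.496) and 1370287_a_at at -0.048.

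Calponins bind actin filaments and tropomyosin. The smooth-muscle form Cnn1 was too dim to be tested, with a highest group mean of 5.55. Cnn3, a form also made outside muscle, had the lowest unadjusted p of all cytoskeleton probe sets in conditioning minus baseline. On 1387856_at the conditioning arrays read 11.07, 11.42, 10.85, 10.63 and 10.96, against 10.18 at the lowest, 10.42 at the median and 10.79 at the highest at baseline. Of these 4 lay above every baseline array and 1 within the baseline range. The difference was 0.54 (SE 0.12, 95% interval 0.28 to 0.79, adjusted p 0.415).

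Cnn3 read 10.98, 10.73, 10.83, 10.71 and 10.56 after pain, 10.59, 10.61, 10.63, 11.03 and 10.45 after isoflurane and 10.47, 11.15, 10.62, 10.69 and 10.59 after conditioning under isoflurane. Each of these groups had a mean above that of baseline, with differences of 0.31, 0.21 and 0.25 (adjusted p 0.481, 0.962 and 0.765). The interaction was -0.50 (SE 0.19, adjusted p 0.959), with conditioning under isoflurane lying 0.039 from isoflurane alone. Astrocyte markers were higher in 17 of 17 probe sets after conditioning and in 13 of 17 after pain. After isoflurane they gave no single direction: their median sum was 48770 beside 47020 at baseline, but their mean score -0.084 beside -0.068. After conditioning under isoflurane both were above baseline, at 50260 and 0.020. Of vascular smooth muscle and pericyte markers 3 of 10 probe sets were bright enough to be tested, all 3 higher after conditioning and after pain. The summed vascular signal ran from 1337 to 1873 at baseline and from 1492 to 1868 after conditioning, and Tagln and Myh11 were below the filter. The part of either cell type in the Cnn3 values was not tested.

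Myosins are the motors of actin, and 9 of 19 probe sets, of 8 genes, were tested. Myo6, which walks toward the minus end of filaments and serves endocytosis, read 8.70, 9.23, 8.51, 8.68 and 8.85 after conditioning and 8.60, 8.34, 8.65, 8.49 and 8.24 after pain on 1376804_at. Baseline gave 8.24 at the lowest, 8.46 at the median and 8.62 at the highest. Of the 5 conditioning arrays 4 lay above every baseline array. Conditioning differed by 0.35 from baseline (SE 0.12, adjusted p 0.417) and by 0.33 from pain (SE 0.14, adjusted p 0.521). Its second probe set, 1398430_at, had the same sign, 0.22 and 0.043.

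Myo5a carries vesicles and endoplasmic reticulum into spines. On 1368450_at it read 8.52, 9.05, 10.19, 9.05 and 8.96 after pain, against 8.32 at the lowest, 8.56 at the median and 9.29 at the highest at baseline. Pain replicate 3, at 10.19, lay above the rest, and the other 4 lay inside the baseline range. The difference was 0.45 (SE 0.22, adjusted p 0.557), or 0.19 without that array (adjusted p 0.999). Myo5b, Myo1c, Myo1d, Myo9b and Myo18a gave no unadjusted p below 0.05 in any comparison. Over the family, 6 of 9 probe sets lay above baseline after conditioning, 8 of 9 with the deposited scaling and 5 of 9 with arrays centred on their medians.

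Fnbp1 bends membranes with its F-BAR domain and recruits the actin-branching machinery to sites of endocytosis. It has 6 probe sets, of which 2 passed the filter, and these pointed in opposite directions. On 1390682_at the pain arrays read 8.73, 9.06, 9.67, 8.60 and 8.89, against 7.40 at the lowest, 8.08 at the median and 8.66 at the highest at baseline. Of these 4 lay above every baseline array. The difference was 0.90 (SE 0.21, 95% interval 0.48 to 1.32, adjusted p 0.148), or 0.73 without pain replicate 3 (adjusted p 0.681). In pain minus baseline, 0 of the 96 cytoskeleton probe sets had pain arrays wholly clear of baseline, beside 0.116% of all.

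The other treated groups lay between on that probe set. Isoflurane arrays read 8.56, 8.60, 8.86, 7.67 and 8.81, conditioning arrays 8.90, 8.36, 8.13, 8.74 and 7.74, and those of conditioning under isoflurane 8.77, 8.45, 8.70, 8.41 and 8.38. All 3 overlapped baseline, with differences of 0.40, 0.28 and 0.45 (adjusted p 0.940, 0.657 and 0.743). Conditioning lay -0.62 from pain (SE 0.23, adjusted p 0.516).

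On 1372825_at Fnbp1 had its lowest reading on pain replicate 3. The pain arrays read 8.37, 9.00, 7.69, 8.88 and 8.42, against 8.18 at the lowest, 8.95 at the median and 9.31 at the highest at baseline, and the conditioning arrays 8.73, 8.99, 8.59, 9.31 and 9.17. Pain differed from baseline by -0.39 (SE 0.18, adjusted p 0.524), and conditioning from pain by 0.49 (SE 0.20, adjusted p 0.521). Without pain replicate 3 these were -0.19 (adjusted p 0.999) and 0.29 (adjusted p 0.683). Isoflurane arrays read 8.82, 8.39, 8.33, 8.88 and 8.59 and those of conditioning under isoflurane 9.01, 8.94, 9.12, 9.04 and 8.85, 0.39 higher (adjusted p 0.998). The 4 dim probe sets gave group means for pain below baseline on 3 and above on 1. Averaged, the 2 tested probe sets lay at 0.25 after pain (adjusted p 0.522) and at -0.066 between conditioning and pain (adjusted p 0.901). The baseline was uneven on 1372825_at, with 8.66 over replicates 1 to 5 and 9.11 over replicates 6 to 9.

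**Figure D4:**
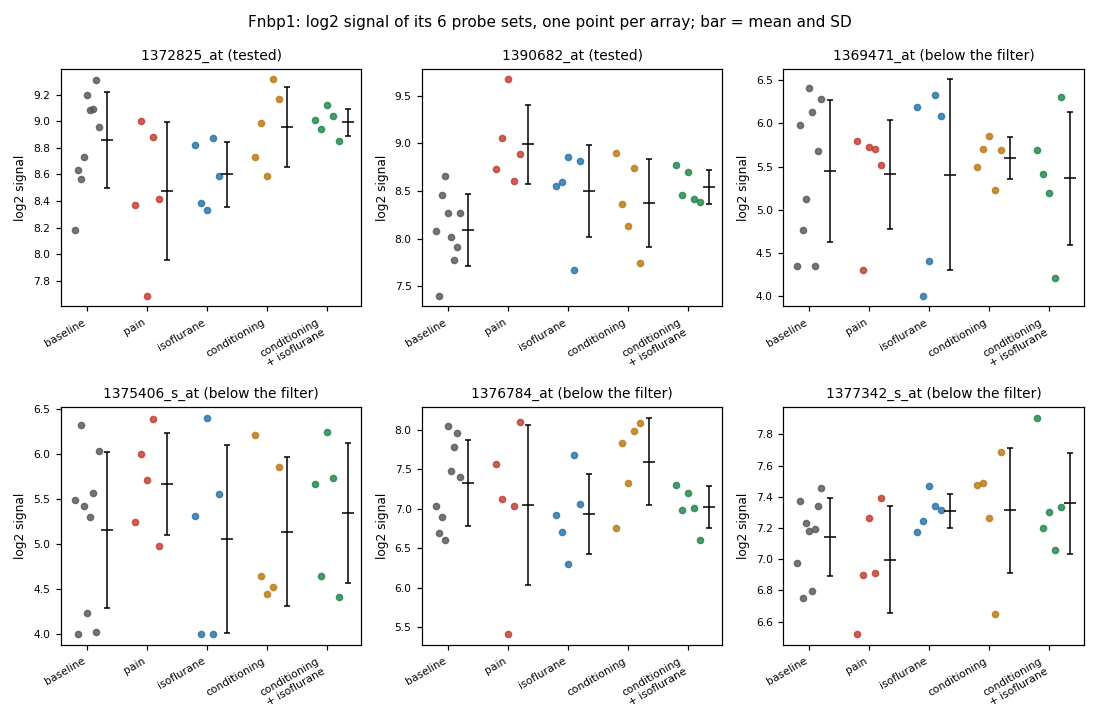
Log2 signal (vertical axis) of the 6 Fnbp1 probe sets in the 5 groups (horizontal axis), with 1 point per array and bars for the mean and SD. Pain is the highest group on 1390682_at and the lowest on 1372825_at, and the 4 probe sets below the filter show no common order of the groups.

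Disagreement between probe sets of 1 gene was common. Of 18 cytoskeleton genes with more than 1 tested probe set, the signs differed for 12 after pain, 9 after isoflurane, 8 after conditioning and 10 after conditioning under isoflurane. Spread within groups was close to that of the array as a whole: the median SD was 0.19 for microtubule and 0.23 for actin probe sets, beside 0.23 for all. The 43 probe sets below the filter included mitotic kinesins such as Kif2c, Kif15, Kif20a and Kif22, the muscle forms Actg2, Actn3 and Cnn1, and many probe sets of Fnbp1 and Tpm3. A further 12 probe sets that name a matching gene together with others, among them those of Tuba1a, Cfl1 and Actr3, were not counted.

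Genes that work with these families were read from 4 lists, drawn up with earlier results of these data known. A leading gene in them is therefore no separate evidence. At an adjusted p of 0.05 limma called 0 of their probe sets after pain or after conditioning. Microtubule partners (tubulin-folding, end-binding and microtubule-associated proteins) lay below baseline in 26 of 42 tested probe sets after pain and 29 of 42 after conditioning, with 6 and 8 probe sets at an unadjusted p below 0.05. Of all probe sets 49.2% lay above baseline after pain and 49.9% after conditioning, and 8.96% and 10.1% had an unadjusted p below 0.05, shares against which the counts of all 4 lists are read. Conditioning lay above pain for 29 of the 42, among them Map4, a microtubule-binding protein (0.42, SE 0.17, adjusted p 0.521). Map6, which stabilises microtubules, lay above baseline after both, by 0.30 (SE 0.092, adjusted p 0.378) and 0.21 (SE 0.092, adjusted p 0.465). Dpysl5, a collapsin-response protein, lay at -0.72 after pain (SE 0.21, adjusted p 0.346). Actin regulators split evenly, with 28 of 51 higher after pain and 28 of 51 after conditioning (5 and 2 at an unadjusted p below 0.05), and the membrane linker Msn led at 0.48 after conditioning (SE 0.16, adjusted p 0.415).

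Partners of Fnbp1 in membrane bending and endocytosis lay above baseline in 10 of 14 tested probe sets after pain and 6 of 14 after conditioning, with 1 and 2 at an unadjusted p below 0.05. Conditioning lay below pain for 11 of the 14. Trip10, a related F-BAR protein, differed by 0.46 after pain (SE 0.19, adjusted p 0.4995). Among intermediate filaments and the spectrin skeleton 18 of 27 probe sets lay below baseline after pain and 13 of 27 after conditioning, with 4 and 6 at an unadjusted p below 0.05. Epb41, which ties spectrin to actin, lay at -0.71 after pain (SE 0.14, adjusted p 0.0704, the lowest adjusted p of any probe set there). It lay 0.64 higher after conditioning than after pain (SE 0.16, adjusted p 0.356). Red cell markers summed to 1590 to 2293 after pain, 2375 to 6818 at baseline and 3061 to 5036 after conditioning. Their part in the Epb41 values was not tested. After conditioning the astrocytic filament genes Gfap (0.40, SE 0.13, adjusted p 0.415) and Vim (0.93, SE 0.33, adjusted p 0.417) were higher, beside the astrocyte markers given above. The part of astrocyte RNA in these values was not tested.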

How the data were processed

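The authors deposited 1 linear intensity per probe set and array. In the deposited values the mean without the lowest and highest 2% is 500.08 to 500.12 on every array, so the authors had scaled each array, and the software is not given in the sources used here. Medians ranged over 0.47 on the log2 scale. Here values were quantile-normalised, then floored at 16 and put on the log2 scale. Control probe sets (57) were left out, and 9520 of 15866 probe sets with a mean of at least the 40th percentile (7.26) were tested. Probe sets took their gene from the platform annotation, and only those with 1 symbol were used. All 139 matched a RefSeq gene and none changed symbol.

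One model of all 5 groups was fitted in limma 3.58.1 (R 4.3.3; lmFit, eBayes with a trend), with Benjamini-Hochberg adjustment over 9520 probe sets and a threshold of 0.05. The steps were tested on simulated data with known changes. The number of arrays limits the precision. Equal replicate numbers did not pair arrays (50 pairs, mean correlation of deviations 0.00147). The members and lists were chosen with earlier results of these data known. Per-array values, or their range, are printed for the 3 higher and 3 lower probe sets of lowest p per comparison and class where the unadjusted p was below 0.05, for Fnbp1 and Cnn3, and for further probe sets of those genes. Other genes are named by role. Alternatives covered the scaling, filter, floor, baseline subset, replicate block and each array left out. One list of partner genes is not reported here.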

Additional observations from a re-analysis of the deposited data

Results flagged for a closer look

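For 26 cytoskeleton probe sets, those among the 3 higher and 3 lower of lowest p per comparison and class that also had an unadjusted p below 0.05, each group of 5 to 9 arrays was examined for a single array far from the rest by Dixon's test, 130 checks in all. A gap this wide arises by chance in about 1 of 20 groups, and 7 were found. After conditioning, replicate 1 read 6.35 for Kif13a, with the others at 7.78 to 8.22. The same array read 11.33 for Dync1li1, with the others at 10.63 to 10.76, and 9.04 for Tpm4, with the others at 8.38 to 8.47. Replicate 2 of that group read 10.3 for Kif3c (1369637_at), with the others at 10.55 to 10.56. Replicate 4 of the isoflurane group read 7.67 for Fnbp1 (1390682_at), with the others at 8.56 to 8.86. Replicate 2 of the pain group read 11.74 for Tubb2b, with the others at 11.84 to 11.87. Replicate 5 of conditioning under isoflurane read 11.52 for Dync1li2, with the others at 11.61 to 11.64. Of the 7 values 3 thus belong to conditioning replicate 1.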

How the results depend on the processing

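Among 368 alternative counts of cytoskeleton probe sets past an adjusted p of 0.05, 3 were above 0, all with baseline replicates 6 to 9 as the only controls. Pain minus baseline then called 3 (Dynll2 0.34, Kif3c 1387657_at -1.64 and Fnbp1 1390682_at 1.00), beside 1.68% of all probe sets, conditioning 1 (Cnn3 0.61), beside 1.16%, and conditioning under isoflurane 1 (Dynll2 0.37), beside 0.599%. With each array left out in turn the counts ran from 0 to 0. Of 2025 alternative values of 50 member results, 2017 kept their direction and stayed short of the threshold, 5 passed it and 3 reversed: Dynll2 after pain (-0.039) with arrays centred on their medians, and Fnbp1 1372825_at with its probe sets averaged, after pain (0.25) and between conditioning and pain (-0.066). With that centring the median of all probe sets lay at -0.111 in pain minus baseline, below the value of Dynll2. The averaged Fnbp1 values combine 2 probe sets of opposite sign, so they are not a reversal of 1372825_at by itself. No cause was tested. With the replicate block on replicates 1 to 5, 0 members were called in every comparison, and Fnbp1 1390682_at lay at 0.81 after pain (adjusted p 0.926), Cnn3 at 0.48 after conditioning (adjusted p 0.665) and Kif1c at 0.69 between conditioning and pain (adjusted p 0.297). It moved the counts at an unadjusted p below 0.05 from 11 to 7 after pain and from 12 to 13 after conditioning. Of 25 arrays 5 correlated best with an array of their own number. The F test was not run on the groups of 1 comparison alone.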
